A study of Mus musculus with 6 samples.

Results

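Mitochondrial ribosomal protein genes were taken as the rows of the deposited mouse heart table whose gene name is Mrpl or Mrps, a number and at most 1 further letter. The rule used names only and found 78 of the 55359 rows, all of which carried enough counts to be tested. By the roles known for their human and mouse products, 26 belong to the small subunit of the mitochondrial ribosome and 51 to the large subunit. Mrps30 and Mrps18a are counted with the large subunit, where their proteins sit despite their names. Mrps36 was named as a ribosomal protein but its product is now known as a subunit of the 2-oxoglutarate dehydrogenase complex of the citric acid cycle, so it is described apart. Another 5 mitoribosome proteins with other names, such as Gadd45gip1, are outside the rule and are given for comparison.

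The mitochondrial ribosome translates the few mRNAs of the mitochondrial genome, which all encode subunits of the respiratory chain and ATP synthase. Its rRNAs are made inside mitochondria, whereas its proteins are encoded in the nucleus, made in the cytosol and imported. Part of these proteins have relatives in bacterial ribosomes and the rest are particular to mitochondria. Heart muscle is rich in mitochondria and depends on oxidative phosphorylation for contraction.

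The study asked how lowering YTHDF2, a protein that binds N6-methyladenosine in mRNA and promotes its decay, bears on heart injury after blocked and restored blood flow. The labels used here give neither sex nor age, nor which cells took up the virus. C57BL/6 mice received an AAV9 vector in the tail vein that carried either a shRNA against YTHDF2 or a control (NC), with GFP under the promoter of cTNT, a heart muscle troponin. After 4 weeks came the operation, and every heart had 45 min of ischemia and 24 h of reperfusion, so no uninjured heart is in the comparison. The control group, shNC, and the YTHDF2 shRNA group, shYthdf2, hold 3 libraries of total heart RNA each. Whether the 3 come from separate animals is not stated, and every p-value here reflects only how far these samples differ from each other, possibly for technical reasons.

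Libraries held 67023813 to 77561552 counts. Levels are counts-per-million values (CPM) on a library size scaled by edgeR, and a log2 fold change is always shYthdf2 minus shNC. Ythdf2 itself had 20.7, 24.3 and 27.0 CPM in shNC, against 25.1, 25.6 and 32.7 CPM in shYthdf2, a log2 fold change of 0.21 ± 0.20 (SE). The mean of the targeted mRNA was thus not lower in shYthdf2 (95% interval of the log2 fold change -0.25 to 0.68, edgeR adjusted p = 0.976), and the groups are called by their labels throughout. Libraries shYthdf2 1 and 2 lay closer to each other than any other pair, with a root mean square log2 difference of 0.87 where the other pairs had 1.05 to 1.41. Libraries shNC 2 and shNC 3 lay farthest apart, at 1.41.

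Promoter windows are shown first because they can be searched for the motifs of 3 activators of nuclear genes for mitochondria. GABP (also called NRF-2, an ETS factor), NRF-1 and YY1 are known to act on many such genes. Windows from 250 bases before to 50 bases after the start came from RefSeq on build GRCm38.p6 and were found for 69 of the 78 members. Mrpl4, Mrpl13, Mrpl15, Mrpl19, Mrpl38, Mrpl54, Mrps28, Mrps34 and Mrps35 had none. The windows printed were chosen for what they hold. Both Mrpl58 (chr11:115403502-115403801, plus strand) and Mrpl51 (chr6:125191950-125192249, plus strand) hold ETS letters and had log2 fold changes of -0.49 and -0.70 (shYthdf2 minus shNC). Mrpl17 (chr7:105811038-105811337, minus strand) and Mrps18b (chr17:35916391-35916690, minus strand) hold ETS and NRF-1 letters and had log2 fold changes of -0.45 and 0.00. Mrps12 (chr7:28741772-28742071, minus strand) starts 222 bases from the mitochondrial seryl-tRNA synthetase gene Sars2, which is read the other way, and Mrps17 (chr5:129715247-129715546, plus strand) holds none of the 3 motifs. Each is written 5′ to 3′ on the strand of its gene, and capitals mark CCGGAAG (ETS), CGCATGCG (NRF-1) or AAGATGG (YY1) on either strand.
Mrpl58: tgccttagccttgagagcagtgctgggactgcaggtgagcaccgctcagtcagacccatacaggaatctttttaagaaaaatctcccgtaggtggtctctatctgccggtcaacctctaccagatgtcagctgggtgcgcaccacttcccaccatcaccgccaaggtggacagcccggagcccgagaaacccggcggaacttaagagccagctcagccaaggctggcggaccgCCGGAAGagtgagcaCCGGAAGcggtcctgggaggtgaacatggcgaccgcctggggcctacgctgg
Mrpl51: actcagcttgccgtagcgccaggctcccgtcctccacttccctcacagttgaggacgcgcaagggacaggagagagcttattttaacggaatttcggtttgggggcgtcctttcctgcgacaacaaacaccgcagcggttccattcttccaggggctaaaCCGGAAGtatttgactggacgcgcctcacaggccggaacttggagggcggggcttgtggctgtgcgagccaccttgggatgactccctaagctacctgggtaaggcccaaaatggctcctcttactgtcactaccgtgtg
Mrpl17: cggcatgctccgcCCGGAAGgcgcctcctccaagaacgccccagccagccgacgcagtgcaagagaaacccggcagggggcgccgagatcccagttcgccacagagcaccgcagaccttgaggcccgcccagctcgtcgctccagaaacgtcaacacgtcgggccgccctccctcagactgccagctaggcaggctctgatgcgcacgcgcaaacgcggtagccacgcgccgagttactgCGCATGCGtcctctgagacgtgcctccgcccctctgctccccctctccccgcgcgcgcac
Mrps18b: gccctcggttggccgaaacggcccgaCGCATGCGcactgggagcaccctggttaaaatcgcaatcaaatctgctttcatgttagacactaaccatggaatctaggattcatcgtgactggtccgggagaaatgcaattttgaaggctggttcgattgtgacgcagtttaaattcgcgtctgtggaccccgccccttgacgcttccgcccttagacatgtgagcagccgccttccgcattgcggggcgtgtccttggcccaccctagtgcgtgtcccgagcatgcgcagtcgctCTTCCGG
Mrps12: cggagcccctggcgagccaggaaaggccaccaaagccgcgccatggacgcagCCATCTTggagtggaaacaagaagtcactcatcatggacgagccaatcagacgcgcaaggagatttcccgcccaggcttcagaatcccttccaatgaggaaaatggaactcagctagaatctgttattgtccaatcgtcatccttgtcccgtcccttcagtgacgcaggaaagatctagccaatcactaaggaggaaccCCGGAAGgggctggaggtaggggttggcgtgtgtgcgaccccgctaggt
Mrps17: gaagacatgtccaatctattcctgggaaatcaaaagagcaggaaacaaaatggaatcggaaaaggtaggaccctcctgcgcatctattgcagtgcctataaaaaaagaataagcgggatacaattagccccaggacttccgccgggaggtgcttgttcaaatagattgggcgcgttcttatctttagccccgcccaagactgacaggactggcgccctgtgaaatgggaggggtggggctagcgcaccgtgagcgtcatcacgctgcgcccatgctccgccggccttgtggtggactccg

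In these windows the ETS letters of Mrpl58 begin 17 and 2 bases before the start, and those of Mrpl51 begin 90 bases before it. In Mrpl17 the NRF-1 letters begin 10 bases before the start. Over all windows of members, ETS letters stood in 26 of 69 (37.7%), against 16.9% of 13148 tested genes with a window and 8.86% of all 32851 windows. NRF-1 letters stood in 7 members (10.1%), against 3.54% of tested genes, and YY1 letters in 13 (18.8%), against 7.62%. The GC box GGGCGG was in 34 members (49.3%), a smaller share than the 61.7% of tested genes. The cyclic AMP element TGACGTCA was in 2 members (2.9%, against 3.16% of tested genes). The letters AAGGTCA of an estrogen-related receptor site were in 4 (5.8%, against 4.3%). Members with and without ETS letters had median log2 fold changes of -0.30 and -0.31, and the 7 with NRF-1 letters had -0.15, with 4 lower, against -0.31 without. For YY1 the medians were -0.27 with and -0.31 without. A match is a run of letters in a window, not a measured binding site.

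As a group the mitochondrial ribosomal protein mRNAs lay somewhat lower in shYthdf2 than in shNC, but the shNC libraries themselves lay wide apart. The log2 fold change was below 0 in 69 of 78 members (88.5%), where 51.4% of all 20489 genes tested lay below 0. Its median over members was -0.31, against -0.01 over all genes, and it ran from -0.84 to 0.17. No member passed the threshold of an adjusted p under 0.05 in edgeR's quasi-likelihood test, in which 0.00976% of all genes did, and the lowest adjusted p of a member was 0.976. DESeq2 called 0 members too, against 0.259% of all genes, with 9 at an unadjusted p under 0.05 (11.5%, against 5.58%). In edgeR 6 members had an unadjusted p under 0.05 and all 6 were lower (7.69%, against 1.77% of all genes lower at that p): Mrps9, Mrps17, Mrps34, Mrpl23, Mrpl55 and Mrpl58. That count changed with the libraries used. It was 35 without shNC 3 (all lower, where 9.34% of all genes were lower at that p). It was 1 without shNC 1, against 1.74% of all genes lower at that p, and 1 without shNC 2, against 0.993%. Without any 1 shYthdf2 library it was 0, against 1.09% to 1.42% of all genes. The 3 values of each group did not overlap in 15 members, all lower in shYthdf2 (19.2%, against 4.55% of all genes). These were Mrps7, Mrps14, Mrps15, Mrps17, Mrps26 and Mrps34 of the small subunit, and Mrpl20, Mrpl23, Mrpl24, Mrpl35, Mrpl36, Mrpl38, Mrpl54, Mrpl57 and Mrpl58 of the large subunit. Differences were small in size: 6 members were at least 1.5-fold lower (7.69%, against 14.7% of all genes). At least 2-fold lower were 0 members, against 6.63% of all genes. All genes also had a larger SE of the log2 fold change, with a median of 0.39 against 0.22 for members.

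The difference was uneven over the shNC libraries. The summed level of the 78 members was 3687, 4695 and 3084 CPM in shNC, against 2997, 3003 and 3157 CPM in shYthdf2. The group means were 3822 ± 814 and 3053 ± 90.8 CPM (SD, n = 3). Thus the sum in shNC 3 lay inside the range of shYthdf2, and the groups overlapped. Library shNC 2 held the highest value of the 6 in 61 of 78 members (78.2%, against 20.9% of all genes) and the lowest in 0. Library shNC 3 was at or below the highest shYthdf2 value in 54 members, shNC 1 in 30 and shNC 2 in 13. Above that value lay 24 of 78 members in shNC 3, where 30.4% of all genes did. In shNC 1 it was 48 members, against 30.6% of all genes, and in shNC 2 65 members, against 32.2%. The coefficient of variation of a member had a median of 20.3% in shNC and 9.36% in shYthdf2. Over all genes tested its median was also higher in shNC. The SD was larger in shNC for 64 of 78 members (82.1%, against 65.9% of all genes), so a wider spread in shNC was not particular to members. Without shNC 2 the median log2 fold change of members was -0.13, with 59 lower. Without shNC 3 it was -0.41, and 1 member, Mrps35, passed in edgeR (adjusted p = 0.0374) among 211 genes that then did. The count of members lower with no overlap of the groups was 46 without shNC 3 (59.0%, against 19.8% of all genes). It was 30 without shYthdf2 3 (38.5%, against 8.76%). With shNC 1, shNC 2, shYthdf2 1 or shYthdf2 2 left out it was 20, 16, 17 and 19. The shares of all genes were then 9.17%, 7.56%, 7.8% and 7.69%. Leaving out a library can only keep or raise this count. In bulk tissue, fewer cells of a type and less RNA per cell cannot be told apart.

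**Figure D1:**
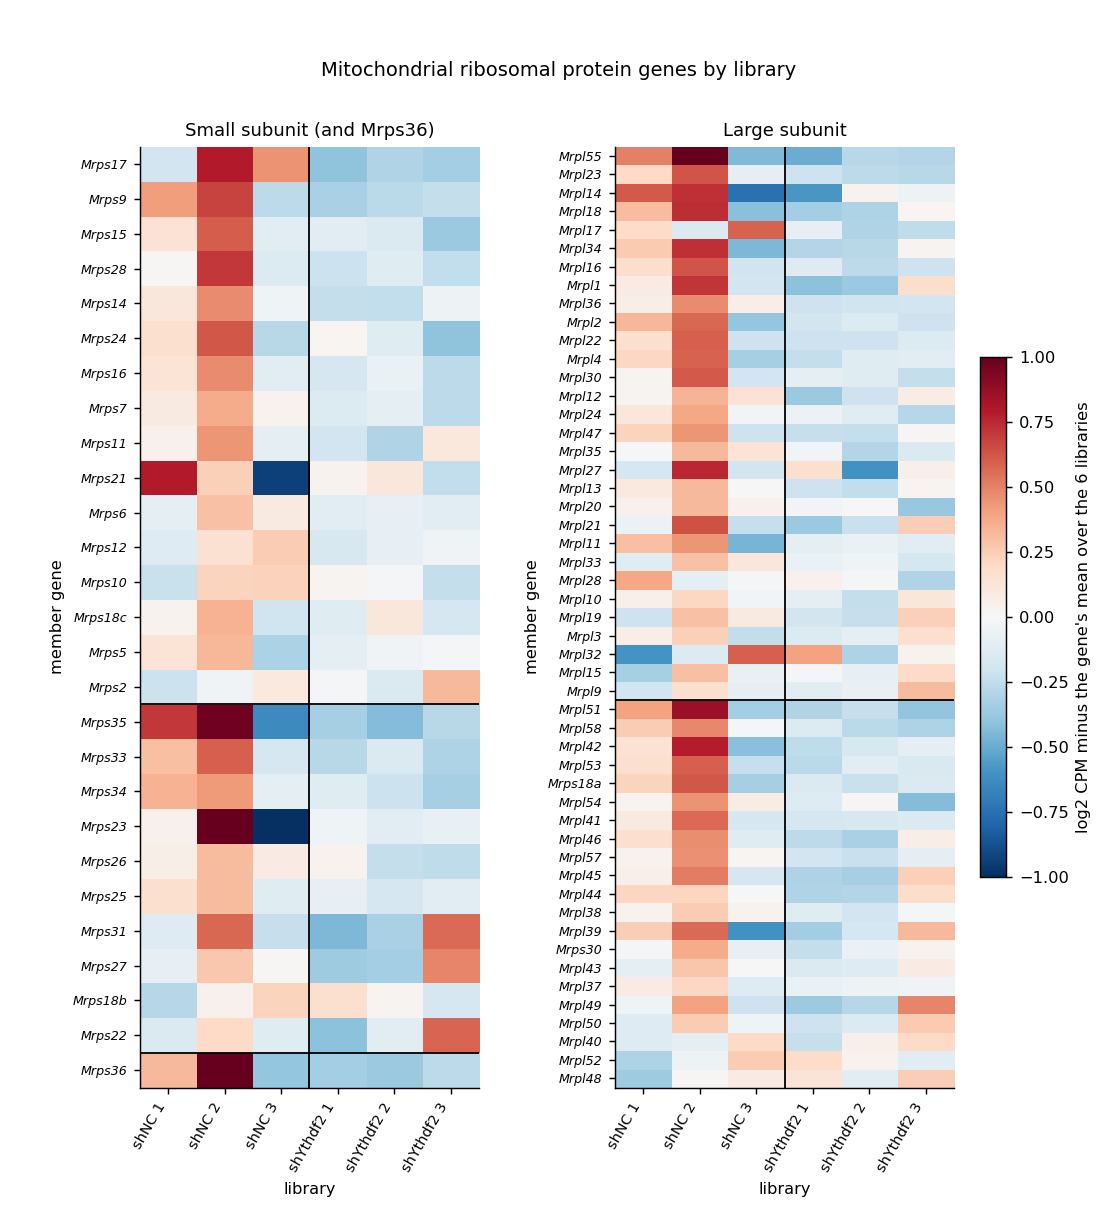
Heat map of all 78 members (rows, grouped by bacterial homologue above and mitochondria-specific below the line, Mrps36 last) in the 6 libraries (columns), coloured by log2 CPM minus the gene's mean over the libraries, with colours full at 1 and -1. The column of shNC 2 is the highest in 61 of 78 rows, and shNC 3 is at or below the highest shYthdf2 library in 54. It is above that library in 24 of 78 rows, where 30.4% of all genes were.

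Among the 16 small-subunit proteins with bacterial relatives, 15 were lower, with a median log2 fold change of -0.30. Mrps17, a conserved protein that binds the small-subunit rRNA, had 25.9, 51.1 and 40.2 CPM in shNC, against 22.3, 23.9 and 23.3 CPM in shYthdf2. Every shNC value lay above every shYthdf2 value, though shNC 1 only narrowly. The means were 39.1 ± 12.6 and 23.2 ± 0.816 CPM (SD, n = 3), and the log2 fold change was -0.75 ± 0.26 (edgeR, unadjusted p = 0.0218, adjusted p = 0.976). It was the smallest unadjusted p of any member. Mrps9, which lies in the head of the small subunit, had 72.0, 86.1 and 44.9 CPM in shNC, against 43.1, 44.7 and 45.7 CPM in shYthdf2, a log2 fold change of -0.60 ± 0.25. Here shNC 1 and 2 were high, while shNC 3 lay among the shYthdf2 libraries. Mrps28, the relative of bacterial S1, had 33.4, 54.1 and 30.2 CPM against 28.5, 30.4 and 28.0 CPM, with a log2 fold change of -0.44 ± 0.25. Library shNC 2 was the highest by far, shNC 1 also lay above the shYthdf2 values, and shNC 3 lay among them.

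Mrps12, a protein of the decoding centre, had 23.7, 28.8 and 30.9 CPM in shNC, against 23.2, 24.5 and 25.3 CPM in shYthdf2, and a log2 fold change of -0.19 ± 0.18. Its groups overlapped and its highest library was shNC 3. Its divergent neighbour Sars2, which charges mitochondrial tRNA with serine, had 14.2, 12.7 and 12.1 CPM in shNC, against 11.1, 9.72 and 10.4 CPM in shYthdf2, without overlap (log2 fold change -0.32 ± 0.19, edgeR adjusted p = 0.976). Mrps2, which takes part in assembling the small subunit, was the 1 conserved small-subunit gene with a positive value. It had 22.0, 24.9 and 27.3 CPM in shNC, against 25.2, 23.1 and 31.9 CPM in shYthdf2, a log2 fold change of 0.11 ± 0.20. Its groups overlapped, and the log2 fold change was -0.03 without shYthdf2 3.

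Mrps21, the most abundant member by FPKM (a level per transcript length, given further on), was also the most variable among the shNC libraries in the conserved small-subunit group. It had 122, 83.1 and 36.8 CPM in shNC, against 72.3, 76.1 and 59.4 CPM in shYthdf2, and a log2 fold change of -0.22 ± 0.40. Library shNC 1 was the highest and shNC 3 the lowest of the 6, so its shNC values enclosed those of shYthdf2. Mrps10, the least abundant by FPKM, had 19.7, 26.8 and 26.9 CPM against 23.4, 22.6 and 19.5 CPM, with a log2 fold change of -0.16 ± 0.20.

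Among the 10 small-subunit proteins particular to mitochondria, 8 were lower, with a median of -0.28. Mrps34, whose product is needed for the stability of the small subunit in mice, had 47.1, 49.8 and 34.8 CPM in shNC, against 34.1, 31.9 and 29.4 CPM in shYthdf2. Its groups did not overlap, but shNC 3 exceeded the highest shYthdf2 library by little. The log2 fold change was -0.47 ± 0.20 (edgeR, unadjusted p = 0.0473, adjusted p = 0.976). Mrps33, another accessory protein of this subunit, had 45.3, 55.6 and 32.7 CPM against 30.3, 33.3 and 29.7 CPM, a log2 fold change of -0.52 ± 0.23. Mrps35, which the rule for naming genes did not pick and which was added after its values were seen, had the most negative log2 fold change of all members, -0.84 ± 0.38. Its values were 95.4, 115 and 37.6 CPM in shNC, against 46.5, 43.3 and 48.4 CPM in shYthdf2. Library shNC 3 held its lowest value, below all 3 shYthdf2 libraries. Mrps22, in which human mutations impair mitochondrial translation, was low throughout, with 10.2, 13.0 and 10.4 CPM against 8.48, 10.5 and 16.9 CPM. Its log2 fold change was 0.10 ± 0.30, and shYthdf2 3 alone was high.

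The paralogs Mrps18a, Mrps18b and Mrps18c descend from one bacterial protein, S18, and take separate places in the ribosome. Despite this descent, Mrps18a and Mrps18b are counted here as particular to mitochondria, and only Mrps18c among the proteins with bacterial relatives. Mrps18a, on the large subunit, had 56.3, 74.5 and 38.4 CPM in shNC, against 43.6, 41.4 and 43.8 CPM in shYthdf2, and its log2 fold change was -0.39 ± 0.25. Mrps18b, on the small subunit, had 48.8, 61.4 and 69.3 CPM against 66.6, 60.6 and 52.9 CPM, with a log2 fold change of 0.00 ± 0.20. Mrps18c, which keeps the bacterial place on the small subunit, had 28.0, 34.7 and 23.8 CPM against 25.2, 29.5 and 24.3 CPM, with a log2 fold change of -0.13 ± 0.20. All 3 overlapped between groups, and their order by library differed: Mrps18b was highest in shNC 3 and the other paralogs in shNC 2. Mrps18b turned slightly negative, between -0.03 and -0.0012, under other scalings, and so has no direction here.

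**Figure D2:**
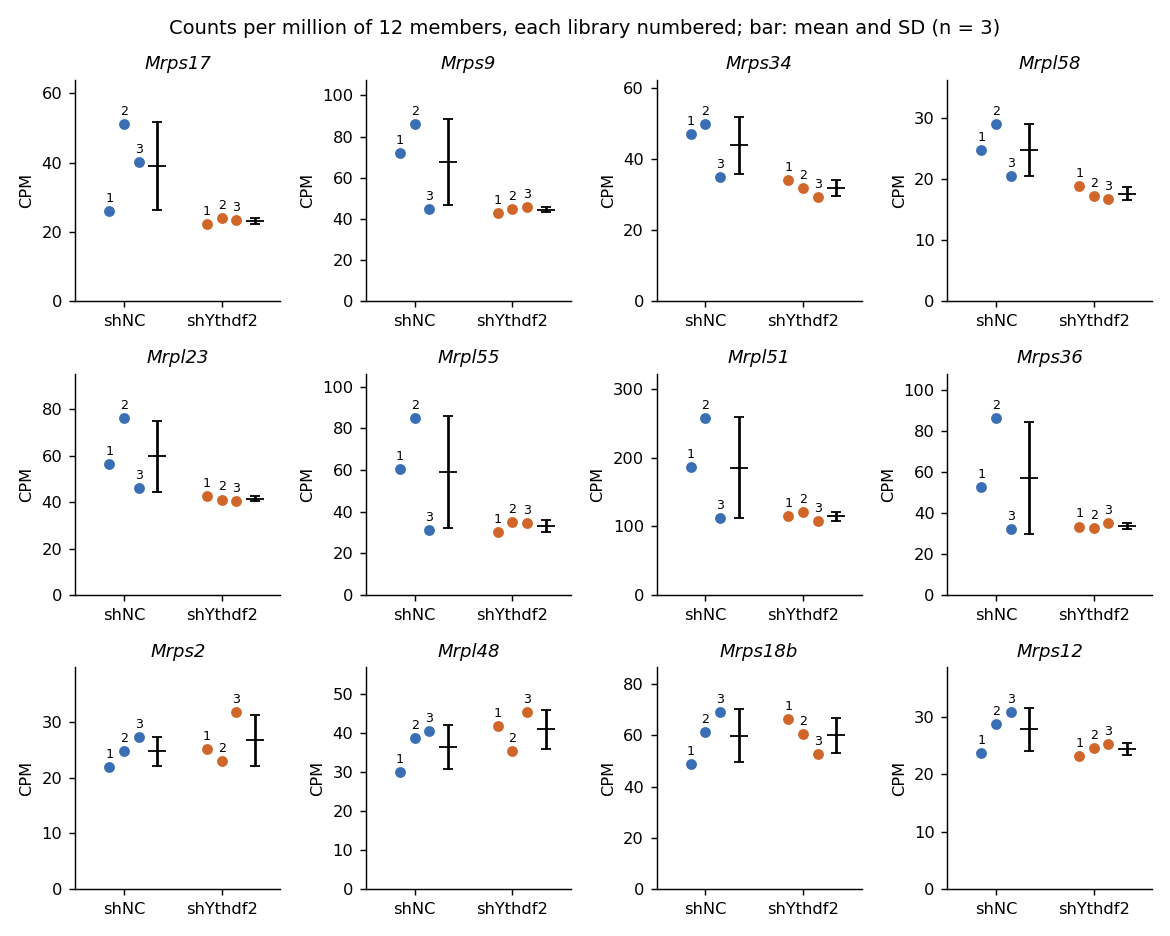
CPM of 12 members in the 6 libraries, with points numbered by library and bars for the mean and SD (n = 3). In Mrps17, Mrps34, Mrpl58 and Mrpl23 all shNC points lie above all shYthdf2 points, while in Mrps9, Mrpl55, Mrpl51 and Mrps36 shNC 3 lies within or just below the shYthdf2 points.

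Of the 30 large-subunit proteins with bacterial relatives, 27 were lower, with a median of -0.32. Mrpl23, at the mouth of the tunnel through which new proteins leave, had 56.4, 76.2 and 46.2 CPM in shNC, against 42.6, 41.1 and 40.6 CPM in shYthdf2. The groups did not overlap and the log2 fold change was -0.52 ± 0.22 (edgeR, unadjusted p = 0.0453, adjusted p = 0.976). Mrpl55 had 60.4, 85.1 and 31.3 CPM against 30.1, 35.1 and 34.6 CPM, with a log2 fold change of -0.83 ± 0.34. Libraries shNC 1 and 2 were well above the rest, and shNC 3 was not. Mrpl2, near the catalytic centre, had 72.9, 86.3 and 44.4 CPM against 51.1, 52.6 and 50.2 CPM, a log2 fold change of -0.40 ± 0.26, again with shNC 3 the lowest of the 6. Mrpl12, the stalk protein that recruits translation factors and also binds the mitochondrial RNA polymerase, had 141, 176 and 153 CPM in shNC, against 107, 120 and 146 CPM in shYthdf2. Its means were 157 ± 17.6 and 124 ± 20.0 CPM (SD, n = 3), the log2 fold change was -0.33 ± 0.20, and shYthdf2 3 exceeded shNC 1.

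The 3 conserved large-subunit genes with positive values were Mrpl9, Mrpl15 and Mrpl32. Mrpl9 had 42.0, 53.4 and 44.7 CPM in shNC, against 44.4, 45.6 and 59.5 CPM in shYthdf2 (0.09 ± 0.20 on the log2 scale). Mrpl15 had 21.5, 33.3 and 25.7 CPM against 26.8, 25.6 and 30.9 CPM (0.05 ± 0.21). Mrpl32, whose precursor is cut by the m-AAA protease before it joins the ribosome, had 9.26, 12.7 and 21.2 CPM against 18.5, 11.3 and 14.3 CPM (0.03 ± 0.35). It was highest in shNC 3 and lowest in shNC 1, an order unlike that of most members. The shYthdf2 values of Mrpl15 and Mrpl32 lay inside the shNC range, and of Mrpl9 only shYthdf2 3 lay above it. Leaving out 1 library turned each negative: Mrpl9 without shYthdf2 3 (-0.05), and Mrpl15 without shNC 1 (-0.08) or shYthdf2 3 (-0.03). Mrpl32 was negative without shNC 1 (-0.20), shNC 2 (-0.04) or shYthdf2 1 (-0.16).

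Of the 21 large-subunit proteins particular to mitochondria, 18 were lower, with a median of -0.27. Mrpl58, a relative of release factors that can free a peptide from a stalled ribosome, had 24.7, 29.0 and 20.5 CPM in shNC, against 18.9, 17.2 and 16.8 CPM in shYthdf2. The groups did not overlap, with means of 24.8 ± 4.25 and 17.7 ± 1.11 CPM (SD, n = 3) and a log2 fold change of -0.49 ± 0.20 (edgeR, unadjusted p = 0.0412, adjusted p = 0.976). Mrpl51 had 187, 258 and 112 CPM against 115, 121 and 108 CPM, and a log2 fold change of -0.70 ± 0.30. Libraries shNC 1 and 2 were high and shNC 3 was not. Mrpl54 had 47.8, 64.0 and 49.4 CPM against 42.9, 47.4 and 34.7 CPM (-0.37 ± 0.20), barely without overlap. Mrps30, of the large subunit, had 26.9, 35.3 and 25.8 CPM against 23.1, 26.0 and 27.9 CPM (-0.19 ± 0.20). Mrpl48 had the most positive value of any member, with 29.9, 38.6 and 40.4 CPM in shNC, against 41.8, 35.4 and 45.4 CPM in shYthdf2 (0.17 ± 0.20), and overlapped. Mrpl52 had 37.3, 44.6 and 55.3 CPM against 52.4, 47.5 and 42.8 CPM (0.06 ± 0.20).

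Mrps36, which tethers a subunit of the 2-oxoglutarate dehydrogenase complex, had 52.7, 86.3 and 32.3 CPM in shNC, against 33.4, 32.6 and 35.2 CPM in shYthdf2. Its log2 fold change was -0.76 ± 0.34 (edgeR, unadjusted p = 0.0573, adjusted p = 0.976), with shNC 3 the lowest library. Of the 3 other subunits of its complex, 2 were lower, with a median log2 fold change of -0.16. Dlst had 80.6, 75.4 and 71.9 CPM in shNC, against 65.4, 75.5 and 134 CPM in shYthdf2 (0.27 ± 0.29). Ogdh had 724, 932 and 333 CPM against 504, 493 and 717 CPM (-0.21 ± 0.39), with the same order of shNC libraries as Mrps36. Dld had 178, 267 and 92.6 CPM against 127, 133 and 220 CPM (-0.16 ± 0.41). Within shYthdf2 all 3 genes were highest in library 3, whereas the 3 values of Mrps36 lay close together. This small list was chosen after the values of Mrps36 were seen.

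Some members departed from the order of libraries that most shared. After the mean of all members in each library was taken out, the largest departure was that of Mrps23, an accessory small-subunit protein, at -0.94 (log2) in shNC 3. It had 48.2, 111 and 22.4 CPM in shNC, against 45.4, 43.3 and 44.4 CPM in shYthdf2, so its shNC values ran from the lowest to the highest of the 6 while shYthdf2 hardly varied. Mrpl17 departed upward in shNC 3, by 0.71, with 51.5, 41.0 and 68.2 CPM against 42.9, 36.8 and 38.0 CPM. Mrps22, Mrps31, Mrps27 and Mrpl49 departed upward in shYthdf2 3, by 0.64, 0.62, 0.54 and 0.54. Mrps27, for example, had 21.8 and 22.0 CPM in shYthdf2 1 and 2 and 39.1 CPM in shYthdf2 3. In all, 8 members were highest in shYthdf2 3, 6 in shNC 3 and 3 in shNC 1, and 0 in shYthdf2 1 or 2.

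Levels between genes were compared by the deposited FPKM (fragments per kilobase of exon, scaled to library size). The mean over 6 libraries had a median of 13.1 FPKM over members and ran from 2.58 for Mrps10 to 89.9 for Mrps21. Mrps21 had 144, 89.9 and 50.5 FPKM in shNC and 89.4, 93.8 and 71.7 FPKM in shYthdf2. Mrpl12 followed at 82.2, Mrpl54 at 51.8 and Mrpl2 at 45.1 FPKM. Mrps21 and Mrpl12 changed places between libraries, so their order does not hold beyond the spread. The lowest were Mrps10 at 2.58, Mrps22 at 2.59, Mrpl32 at 2.66 and Mrpl15 at 2.88 FPKM, whose values overlapped in the libraries. The lowest Spearman correlation of member FPKM between any pair of libraries was 0.931 over 78 genes that share a table and an annotation.

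This ranking depends on the length used. Deposited FPKM divided counts by all exonic bases of a gene: for 99.0% of 11083 well-covered genes, and 78 of 78 members, the length implied by the FPKM was within 5% of a constant multiple of that sum. Long exons of rare or non-coding transcripts therefore lower a member's FPKM. Mrps10 has 8079 exonic bases but a longest coding transcript of 1113, and stood at rank 47 in place of rank 78 when counts were divided by the latter. By that measure, added after the data were seen, Mrpl42 stood highest at 197 CPM per kb and Mrpl32 lowest at 4.82, with a median of 28.2. The Spearman correlation of both measures over the 78 members was 0.82.

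**Figure D3:**
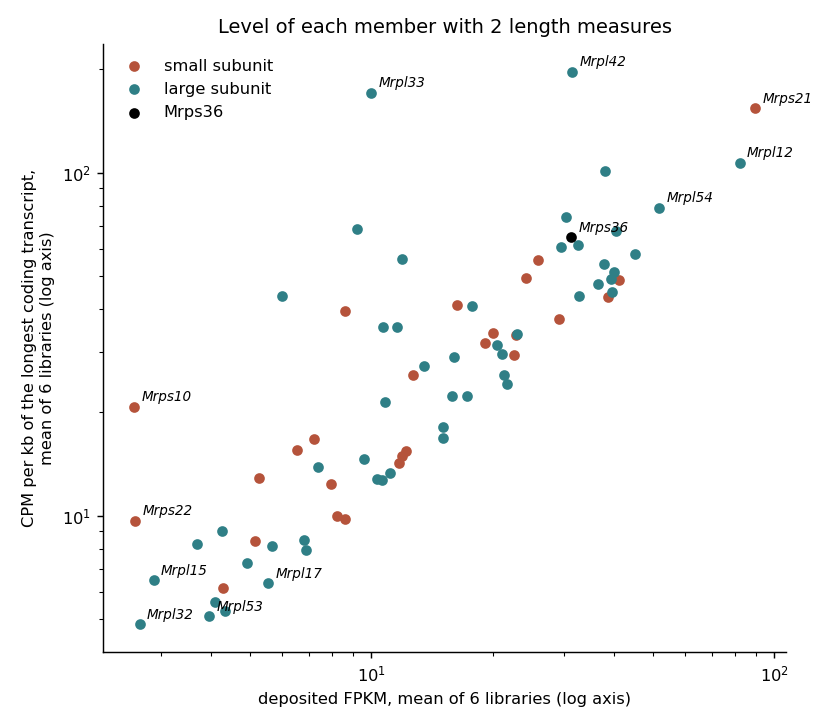
Mean level of each member over 6 libraries by deposited FPKM (x axis, log) and by CPM per kb of its longest coding transcript (y axis, log), coloured by subunit. Mrps10 and Mrpl33 lie far above the diagonal trend, while Mrps21 and Mrpl12 are high on both axes.

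Some levels are uncertain because reads of overlapping genes may be shared. No source used here says that strand was counted, and 37 members overlap another row, 11 of them on the same strand. Mrpl53 is the clearest case: it had 2.87 to 5.24 CPM, and Gm42688 on the same strand held 855% of its counts. Mrpl47 lies across from the complex I gene Ndufb5, which held 1080% of its counts, and Mrps11 and Mrpl46 overlap each other. Mrps34 overlaps Mapk8ip3 (385%) and Mrpl18 overlaps Tcp1 (332%). Rows named as pseudogenes of members held at most 4.65% of the counts of the parent gene.

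Genes of this family often start close to another gene on the opposite strand. A protein-coding gene on the opposite strand started upstream within 1000 bases of 20 of 78 members (25.6%), against 9.23% of 15369 tested coding genes. Of these 20 neighbours 13 were lower, with a median log2 fold change of -0.12. Mrpl36, which had 28.1, 37.4 and 28.3 CPM in shNC, against 23.4, 23.5 and 23.7 CPM in shYthdf2 (-0.41 ± 0.19), starts 51 bases from the complex I gene Ndufs6. Ndufs6 had 447, 500 and 231 CPM against 271, 237 and 193 CPM, so both were highest in shNC 2. Mrpl51 starts 100 bases from the condensin gene Ncapd2, and there the log2 fold changes were -0.70 and 0.07.

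Other parts of the mitochondrial translation machinery were described from lists of textbook members. In these 5 lists 0 genes passed in edgeR or in DESeq2, and 0 had an unadjusted p under 0.05 in either. The 5 mitoribosome proteins with other names were lower in 4 cases, with a median of -0.37. Gadd45gip1, a large-subunit protein, had 73.2, 96.7 and 64.5 CPM in shNC, against 60.1, 58.8 and 49.7 CPM in shYthdf2, without overlap (-0.48 ± 0.21). Aurkaip1, of the small subunit, had 42.2, 68.3 and 35.2 CPM against 33.1, 30.9 and 32.8 CPM, without overlap (-0.59 ± 0.26). Factors that assemble the ribosome were lower in 20 of 26 cases, with a median of -0.17, and the smallest unadjusted p belonged to the rRNA methyltransferase Mrm3 (-0.50 ± 0.27) and the small-subunit factor Rbfa (-0.34 ± 0.21). Translation factors were lower in 11 of 16 (median -0.22), and the initiation factor Mtif3 had 12.1, 17.6 and 12.9 CPM against 10.4, 10.2 and 10.3 CPM, without overlap (-0.46 ± 0.22). Aminoacyl-tRNA synthesis genes were lower in 14 of 20 (median -0.18), and genes that copy or transcribe mitochondrial DNA in 7 of 12 (median -0.08).

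The RNAs made inside mitochondria gave other values than the ribosomal proteins. The rRNA mt-Rnr1 had 3260, 3950 and 2830 CPM in shNC, against 3750, 3750 and 2060 CPM in shYthdf2, and mt-Rnr2 had 6020, 6510 and 4370 CPM against 5970, 6150 and 3970 CPM. Both rRNAs had log2 fold changes of -0.07 (SE 0.32 and 0.30), within the spread of the libraries. The 13 mitochondrial mRNAs were lower in 4 cases, with a median of 0.13. The mRNA mt-Nd4l had 1470, 1020 and 1130 CPM in shNC, against 1600, 1550 and 2460 CPM in shYthdf2 (0.63 ± 0.29, edgeR adjusted p = 0.976). It lay without overlap in the opposite direction, as 1 of 3 among the 13 that did so, against 4.95% of all genes. The 10 regulators of nuclear genes for mitochondria had a median of 0.13, and 3 were lower. Gabpa, which makes the DNA-binding part of GABP, had 40.4, 35.6 and 22.5 CPM against 30.8, 31.4 and 39.7 CPM (0.05 ± 0.25). Nrf1 had 6.45, 9.81 and 7.43 CPM against 8.10, 9.21 and 8.71 CPM (0.14 ± 0.24). Yy1 was lower, with a log2 fold change of -0.13 ± 0.16.

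The nuclear genes for complex I, another large mitochondrial assembly, had the same 2 high libraries. All 36 had negative log2 fold changes, with a median of -0.70, against -0.31 for the ribosomal proteins, and 0 passed in edgeR or DESeq2. In edgeR 5 were lower at an unadjusted p under 0.05, against 1.77% of all genes. DESeq2 gave 12 at an unadjusted p under 0.05, against 5.58% of all genes in either direction. The groups overlapped in all 36, whereas 4.55% of all genes were lower without overlap. Ndufb3 had 301, 409 and 168 CPM in shNC, against 179, 172 and 145 CPM in shYthdf2 (-0.82 ± 0.33, edgeR adjusted p = 0.976). Its shNC 3 value lay inside the shYthdf2 range. In log2 CPM relative to each gene's mean, complex I stood at 0.44, 0.86 and -0.45 in shNC, and the ribosomal proteins at 0.08, 0.44 and -0.12. The libraries share every source of spread, so this is a description of 6 libraries and the difference between both lists was not tested.

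Markers of several cell types also differed between these libraries. The 10 ventricular cardiomyocyte markers had summed levels of 43100, 60210 and 22790 CPM in shNC, against 30960, 29820 and 36680 CPM in shYthdf2, highest in shNC 2 and lowest in shNC 3. Of them 7 were lower, with a median of -0.45, and 0 passed in edgeR or DESeq2. The 5 red cell markers summed to 2094, 3684 and 478.5 CPM in shNC and 612.8 to 641.1 CPM in shYthdf2. All 5 were lower at an unadjusted p under 0.05 in edgeR, against 1.77% of all genes, with 0 past the threshold in edgeR or DESeq2. The groups overlapped in all 5, and the sum was lowest in shNC 3. The 6 endothelial markers summed to 2847, 3454 and 1406 CPM against 2568, 2616 and 2027 CPM, a sum highest in shNC 2 and lowest in shNC 3. Their mean log2 CPM relative to each gene's mean was instead highest in shNC 1, at 0.35, with 0.19 in shNC 2 and -0.57 in shNC 3. The 3 brown fat markers summed to 44.37, 75.36 and 15.38 CPM against 28.0, 27.35 and 15.09 CPM, and both that were tested were lower (median -1.48). The atrial marker Sln had 0 counts in all libraries, which allows up to 0.0443 CPM by a floor of 3 counts. The sum of the 4 atrial markers was 3707 CPM in shNC 3 and 193.5 to 2594 CPM elsewhere. Only 2 of the 4 passed the filter, and their mean FPKM had a median of 0.327 over the 4 and a highest value of 1750. This sum thus came almost wholly from its most abundant gene, Nppa (log2 fold change 0.27 ± 0.96), and describes that gene more than atrial tissue. Myl4, the other tested marker, had a log2 fold change of -0.34 ± 0.37. The 6 platelet markers summed to 157.3 and 163.5 CPM in shYthdf2 1 and 2 and to 34.04 to 50.58 CPM elsewhere. All 6 were higher in shYthdf2, 5 of them at an unadjusted p under 0.05 in edgeR, against 1.88% of all genes. Of these markers 2 passed in DESeq2, against 0.259% of all genes, while 0 did in edgeR. The 7 neutrophil markers were also highest in shYthdf2 1 and 2, with sums of 456.3 and 455.3 CPM there, 120.5, 190.2 and 332.8 CPM in shNC and 105.7 CPM in shYthdf2 3. The 7 macrophage and 6 fibroblast markers had medians of 0.25 and 0.23. The part of muscle, atrial tissue, vessels, fat and blood in the values of the members was not tested.

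**Figure D4:**
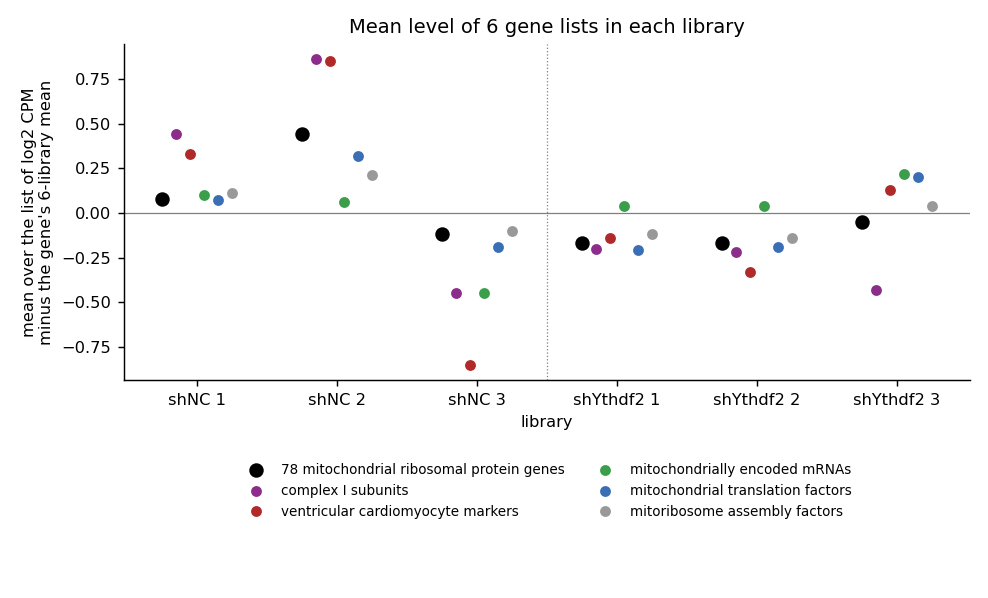
Mean over each of 6 gene lists of log2 CPM minus the gene's mean (y axis), for the 6 libraries (x axis). The 78 ribosomal protein genes, complex I and the ventricular markers are all highest in shNC 2, at 0.44, 0.86 and 0.85. Mitochondrial translation factors and mitoribosome assembly factors are also highest there, at 0.32 and 0.21, while the mitochondrial mRNAs stand at 0.06.

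Transcript length also went with the difference. Over all genes tested, the median log2 fold change was -0.24 for the 856 genes whose longest coding transcript is under 1000 bases and 0.05 for those of 4000 or more. The 24 members under 1000 bases had a median of -0.39, the 22 from 1000 up to 1500 bases -0.27 and the 7 from 1500 up to 2000 bases -0.11. The 16 members from 2000 up to 4000 bases had -0.29, where all 6175 genes of that length had 0.03, and the 9 longest had -0.25. Thus Mrps17 and Mrps35, with 5061 and 4162 bases, were among the members with the most negative values although long genes as a whole were not lower. In each of the 5 length classes the median of members lay below that of all genes. The Spearman correlation of length with log2 fold change over the 78 members was 0.21. Whether length itself took part was not tested.

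**Figure D5:**
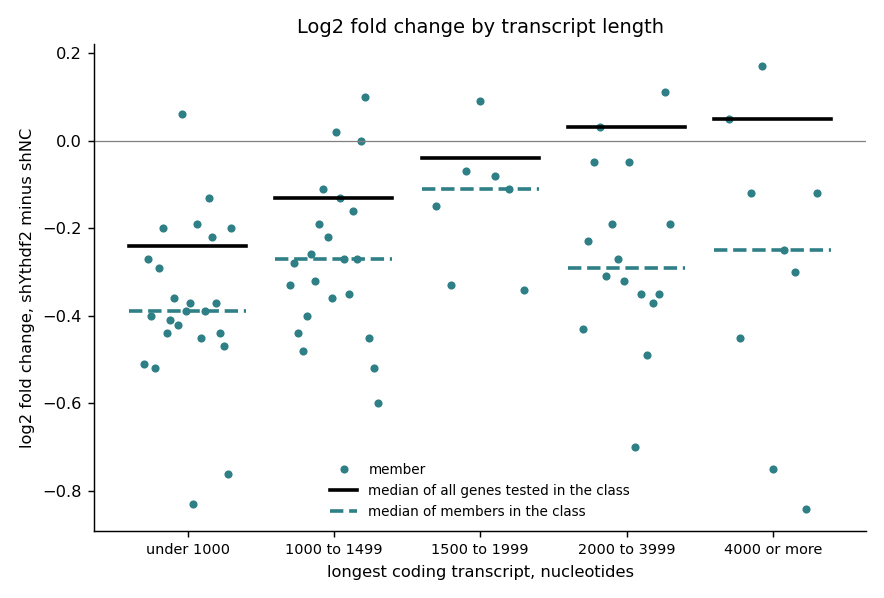
Log2 fold change (y axis, shYthdf2 minus shNC) of each member by class of longest coding transcript (x axis, in nucleotides), with the median of all genes in the class as a solid line and of members as a dashed line. The solid line climbs from -0.24 to 0.05, and the dashed line lies below it in every class.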

How the data were processed

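One deposited table holds 55359 mouse genes. Its columns of unscaled read counts, 1 per library, were deposited by the authors (per the file headers). The authors also made its FPKM values (per the file headers), whose length basis was checked against the counts. The submitters' processing notes list Bowtie 0.12.2 and build mm8 without saying for which step. For the counting program and for the build of the table's coordinates, the name is not given in the sources used here, so genes are identified by name.

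Counts were tested with edgeR 4.0.16 in R 4.3.3 (quasi-likelihood, two-sided, TMM scaling, filterByExpr) across 20489 genes, with Benjamini-Hochberg adjustment and a threshold of 0.05. The filter kept 99.89% to 99.97% of the counts of each library. CPM divide each count by the library size after TMM scaling, and the FPKM were used for levels between genes. The 95% intervals and SE come from the same fit and cover the spread between libraries. The floor of 3 counts covers counting error only. Alternatives used DESeq2 1.42.0, limma 3.58.1 on log2(FPKM + 0.5), other scalings and filters, and libraries left out. The exact permutation test of 3 against 3 values cannot go below p = 0.1 and was not relied on. Correlations of deviations between libraries with the same number were -0.0132, -0.0264 and -0.0581, so numbers were not taken as pairs. The edgeR step was tested on simulated counts.

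Exon and transcript lengths came from GENCODE M21, in which all 78 members were found by identifier, and promoter windows from RefSeq. Values per library are given for the 4 members per subunit and direction with the smallest p, the 4 highest and 4 lowest by FPKM, and a few preset for their roles, 27 in all. Other members are given where a count or description turned on them. The members, gene lists and tests were chosen with earlier results of these data known, and dividing by coding transcript length and the 2-oxoglutarate dehydrogenase list were added after the data were seen.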

Additional observations from a re-analysis of the deposited data

How the results depend on the processing

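Under 11 settings with all libraries (DESeq2, RLE, upper quartile or no scaling, no or a stricter filter, limma with 3 pseudocounts, shYthdf2 1 and 2 summed, and the replicate block), 0 members passed, 65 to 72 were lower and the median was -0.34 to -0.24. With the replicate block 0 members passed, the median was -0.29 and 1 member had an unadjusted p under 0.05 (3.07% of all genes did), against 6 without it. With shYthdf2 1 and 2 summed that count was 0 (1.89% of all genes had an unadjusted p under 0.05). No correlation of like-numbered libraries exceeded 0.1, so the block is a check on numbers only. All genes past the threshold numbered 2 in edgeR, 53 in DESeq2 and 211 without shNC 3.

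With 1 library left out at a time, 0 to 1 members passed (Mrps35, without shNC 3), the median ran from -0.41 to -0.13 and 59 to 74 members were lower. Of 459 values of named members 436 kept their direction and 23 turned. Mrps18b turned to -0.0012 with DESeq2 and with RLE scaling, -0.03 with upper quartile scaling, -0.0026 with library totals, -0.02 with the stricter filter and -0.03 with the close pair summed. Mrpl32 turned to -0.02 with upper quartile scaling and -0.01 with library totals. The other turns came with 1 library left out, over ranges of -0.08 to 0.24 for Mrpl15, -0.20 to 0.42 for Mrpl32, -0.07 to 0.22 for Mrpl52, -0.05 to 0.20 for Mrpl9, -0.12 to 0.13 for Mrps18b, -0.25 to 0.03 for Mrps18c, -0.03 to 0.21 for Mrps2, -0.56 to 0.21 for Mrps21 and -0.23 to 0.30 for Mrps22. The causes were not tested.

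With 3 libraries a group and shNC libraries that lie wide apart, a change of the size seen in most members could not be told from the spread. As to depth, 77 members had at least 8.48 CPM in every library, and Mrpl53 had 2.87 to 5.24 CPM.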
